A study of Mus musculus with 10 samples.

Results

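Hnf4a, Hnf4g, Pax2, Pax8, Lhx1, Emx1, Emx2 and Tfcp2l1 encode transcription factors that build the nephron and keep the identity of its tubule segments. They were taken as 8 named genes, through each probe set (a group of short probes for 1 transcript) that the array annotation pairs with exactly 1 gene symbol equal to a name. That gave 17 probe sets of 7 genes, out of 45101 probe sets and 18193 singly named genes on each array, and Pax2 was not analysed here. Kidneys of male C57BL/6 mice were profiled at 30 months of age, with 5 mice on a control diet and 5 under long-term calorie restriction, 1 mouse per array. No transgene or drug is named for either group, and the sources used here do not give the degree, start or length of the restriction. The comparison asks how lasting calorie restriction changes the transcripts of an old kidney.

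Hepatocyte nuclear factor 4 alpha, Hnf4a, is a nuclear receptor that switches on the transport and metabolic genes of the proximal tubule, where most of the filtrate is reabsorbed. Pax8 and Lhx1 act with Pax2 from the first steps of nephric duct formation, and Pax8 stays on in adult tubules. Tfcp2l1 is a factor of the distal nephron and collecting duct needed there for the patterning of principal and intercalated cells. Emx2 is needed for the ureteric bud of the embryo to form a kidney.

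The Hnf4a gene has an upstream and a downstream start, used to different degrees in different tissues, and both are shown. Whether use of the starts bears on the differences among its probe sets was not tested. The 250 bases before each start are given 5′ to 3′ from RefSeq (GRCm38.p6), plus strand, at chr2:163506607-163506856 and chr2:163546905-163547154. Capitals mark TAATTA, the core read by homeodomain factors such as EMX and LHX proteins, on either strand.
Hnf4a upstream start: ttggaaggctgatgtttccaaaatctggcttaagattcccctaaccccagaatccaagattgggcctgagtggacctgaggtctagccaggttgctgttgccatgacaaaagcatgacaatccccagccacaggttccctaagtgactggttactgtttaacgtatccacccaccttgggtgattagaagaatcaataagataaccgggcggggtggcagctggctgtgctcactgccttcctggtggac
Hnf4a downstream start: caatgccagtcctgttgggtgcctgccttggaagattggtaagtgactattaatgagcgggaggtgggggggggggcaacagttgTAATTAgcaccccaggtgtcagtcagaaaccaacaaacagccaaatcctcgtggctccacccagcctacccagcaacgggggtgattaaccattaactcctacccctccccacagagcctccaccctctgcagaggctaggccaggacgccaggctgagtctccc
The match at the downstream start begins 165 bases before it, and the upstream start has none. Over the windows of 300 bases (250 before to 50 after a start), 5.29% of 32851 promoters hold TAATTA. Which of the starts each probe set reads is not known from the sources used here.

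The arrays give a MAS5 signal, an intensity on a linear scale. Levels are not compared between probe sets, since each has its own probes. Probe sets were tested with limma if their mean log2 signal over the 10 arrays reached the median of all probe sets, 6.81. Of the 17 probe sets 10 did so, for 6 genes, and the 3 probe sets of Hnf4g, 1 of Pax8, 1 of Emx1 and 2 of Tfcp2l1 did not. A probe set was called at an adjusted p under 0.05 over all 22519 tested. The 3' to 5' ratio of the Gapdh and Actb control probe sets rises when RNA is shorter or labelling less complete. On the log2 scale it was 0.76 to 1.39 for the control kidneys and 1.16 to 2.21 for the calorie-restricted ones (2-sided exact permutation p = 0.0476), highest on calorie-restricted replicates 1, 2 and 3. In whole kidney, fewer cells of a type and less RNA per cell cannot be told apart.

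Of the tubule factors, Hnf4a was the gene that passed the test, by its brightest probe set alone. That probe set, 1427001_s_at, was 1.31-fold higher in calorie-restricted kidney. Hnf4a probe set 1421983_s_at ran the other way, with a log2 difference of -0.55 (limma adjusted p = 0.0548). Probe sets 1427000_at and 1450447_at differed by -0.13 and 0.05, uncalled. The mean over the 4 Hnf4a probe sets differed by -0.060 (limma adjusted p = 0.766). Pax8, Lhx1, Emx1, Emx2 and Tfcp2l1 did not pass at any tested probe set, with log2 differences between -0.053 and 0.097. In all, 1 of the 10 tested probe sets was called, and it was higher, where 6.09% of all tested probe sets were called and 2.93% were called higher. The diets did not overlap in 1 of the 10, where that held for 7.12% of all tested probe sets.

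**Figure D1:**
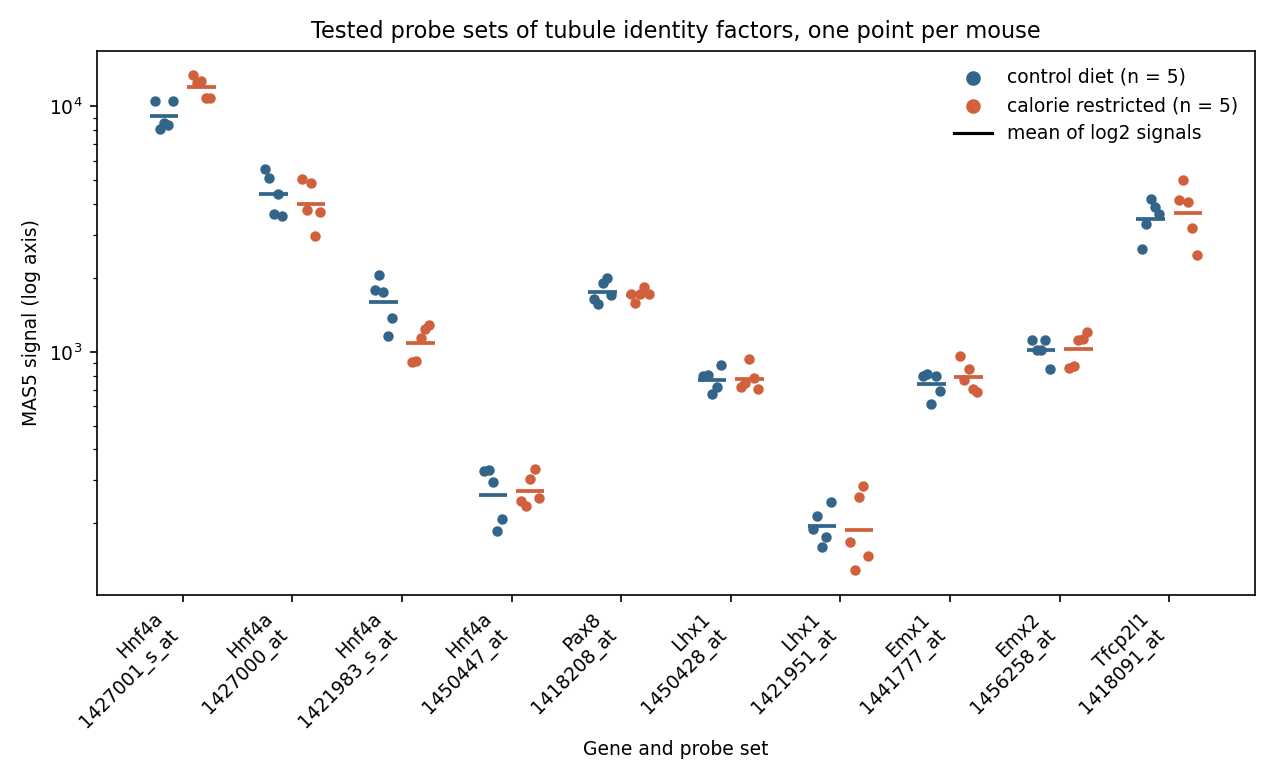
MAS5 signal (log axis) of the 10 tested probe sets in each of 5 control and 5 calorie-restricted kidneys, 1 point per mouse, with a bar at the mean of the log2 signals. The diets are fully apart for Hnf4a 1427001_s_at, from 8088 to 10525 in control and from 10777 to 13351 in calorie restriction, and overlap for the other 9.

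The brightest Hnf4a probe set, 1427001_s_at, gave signals of 10525, 8088, 8517, 8402 and 10511 in control replicates 1 to 5. In calorie-restricted replicates 1 to 5 it gave 13351, 12415, 12722, 10843 and 10777. All 5 calorie-restricted kidneys lay above all 5 controls, with the gap between 10525 and 10777 narrow. The mean rose from 9209 ± 1205 to 12022 ± 1157 (SD, n = 5), a log2 difference of 0.39 ± 0.10 (SE; limma adjusted p = 0.0388). The call was lost without control replicate 2, 3 or 4 or calorie-restricted replicate 1, 2 or 3. Over all single arrays left out, the difference was 0.34 to 0.44 and the adjusted p 0.0246 to 0.0969. After quantile normalization it was 0.26 (adjusted p = 0.108), and in replicates 4 and 5 of each group alone, where the 3' to 5' ratios were 1.16 to 1.39, it was 0.20 (limma adjusted p = 0.479). Adjusted for the 3' to 5' ratio it was 0.23 (limma adjusted p = 0.419).

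Another Hnf4a probe set, 1421983_s_at, ran the other way. Its signals were 1778, 2049, 1745, 1164 and 1370.5 in control replicates 1 to 5 and 905, 921, 1140.1, 1236 and 1289.9 in calorie-restricted replicates 1 to 5. The diets overlapped, since control 4 lay among the calorie-restricted values, and 3 calorie-restricted kidneys lay below all controls. The means were 1621 ± 352 and 1099 ± 177 (SD, n = 5), a log2 difference of -0.55 ± 0.16. It missed the threshold (limma adjusted p = 0.0548), and passed without control replicate 4 or calorie-restricted replicate 4 or 5.

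The other Hnf4a probe sets did not pass the test. Probe set 1427000_at averaged 4457 ± 880.0 under the control diet and 4077 ± 869.6 under restriction (SD, n = 5), a difference of -0.13 ± 0.16 (limma adjusted p = 0.632). Probe set 1450447_at had means of 269 ± 67.0 and 274 ± 41.0, a difference of 0.05 ± 0.19 (limma adjusted p = 0.882). That difference was 0.55 in replicates 4 and 5 alone (limma adjusted p = 0.326) and 0.38 when adjusted for the 3' to 5' ratio (limma adjusted p = 0.493). The mean log2 signal over the 4 Hnf4a probe sets differed by -0.060 ± 0.11 (limma adjusted p = 0.766). Hnf4a was therefore called by 1 of 4 probe sets, and by none when they were averaged.

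These diverging probe sets were compared within each array, a test chosen after their values were seen. The log2 ratio of 1427001_s_at to 1421983_s_at was 2.57, 1.98, 2.29, 2.85 and 2.94 in control replicates 1 to 5. It was 3.88, 3.75, 3.48, 3.13 and 3.06 in calorie-restricted replicates 1 to 5, all above all controls. The groups differed by 0.94 on the log2 scale, and the 2-sided exact permutation p of 0.00794 is the smallest that 5 against 5 can give. In replicates 4 and 5 of each group alone the difference was 0.20, and with calorie-restricted replicates 4 and 5 set against the 5 controls it was 0.57.

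The 3' to 5' ratio was set beside these values. From the array with the highest ratio to that with the lowest, the 1421983_s_at signal ran 905, 921, 1140.1, 1164, 1370.5, 1236, 1289.9, 1745, 1778 and 2049. It was thus higher at each step down in the ratio across both diets, except at the step from control replicate 5 to calorie-restricted replicate 4. In replicates 4 and 5 alone, the diets differed at this probe set by -0.00033 on the log2 scale. The 3 highest signals of 1427001_s_at were on the 3 arrays with the highest ratios, calorie-restricted replicates 1, 3 and 2. Its signal did not follow the ratio on the other arrays. Control replicate 4, next in ratio at 1.39, gave 8402, and control replicate 1, at 0.91, gave 10525. In replicates 4 and 5 it was 8402 and 10511 in control and 10843 and 10777 in calorie restriction. Adjusted for the ratio, the difference of 1421983_s_at was -0.13 (limma adjusted p = 0.737). The part of RNA quality in these differences was not tested beyond these values.

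**Figure D2:**
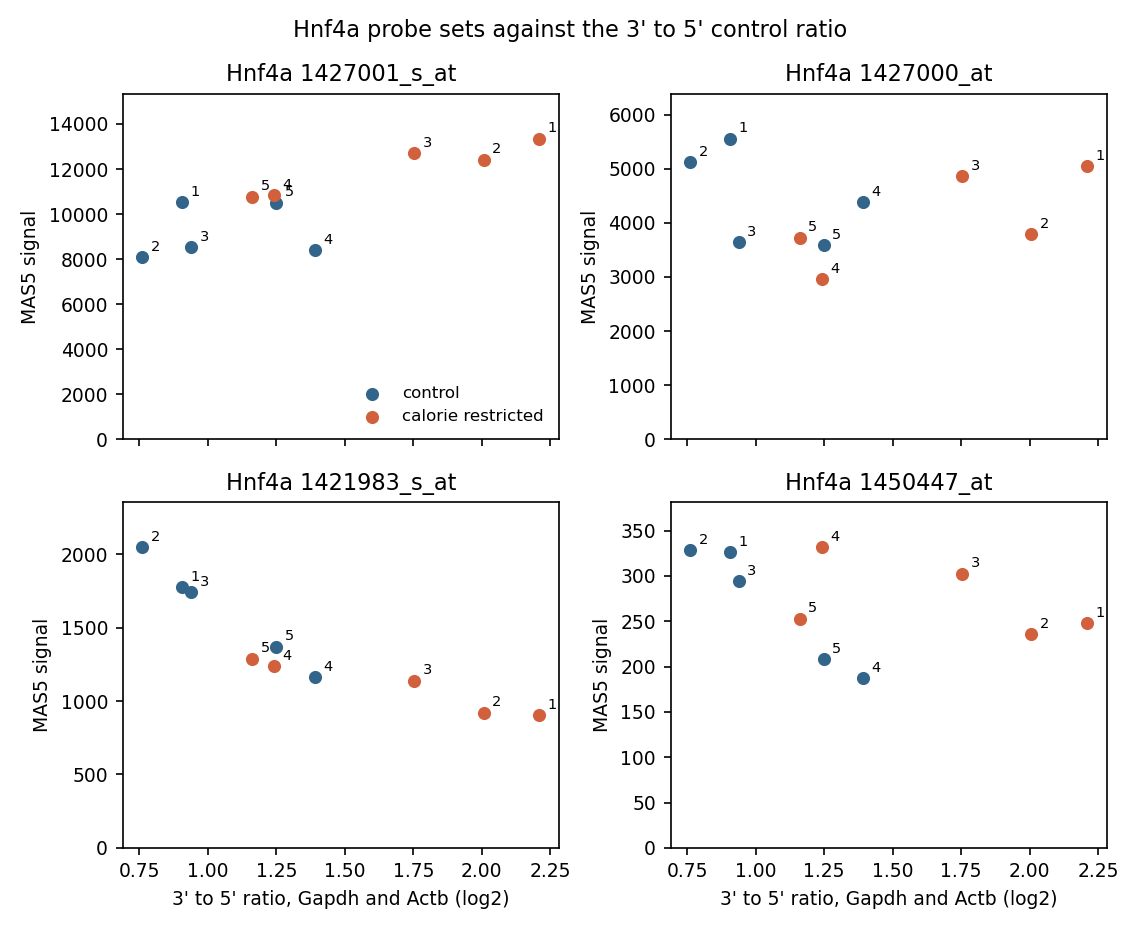
MAS5 signal of the 4 Hnf4a probe sets against the log2 3' to 5' ratio of the Gapdh and Actb control probe sets on the same array, numbered by replicate, with 5 arrays per diet. The 1421983_s_at signal goes from 2049 at the lowest ratio, 0.76, to 905 at the highest, 2.21.

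Hnf4g, the paralog of Hnf4a that binds the same kind of site, was dim. Its brightest probe set, 1460127_at, gave 99.6, 80.1, 83.3, 140.3 and 102 in control replicates 1 to 5 and 124, 65.6, 49.2, 62.2 and 97.9 in calorie-restricted replicates 1 to 5. The diets overlapped, with 3 calorie-restricted kidneys below all controls, and the log2 difference was -0.39. All 3 Hnf4g probe sets lay under the filter, the brightest at the 44.3rd percentile of mean signal. In the fit without a filter its limma adjusted p was 0.568. Probe set 1450518_at ran from 7.44 to 59.1 in control and from 14.8 to 64.8 in calorie restriction, and 1422182_at from 1.93 to 30.4 and from 4.13 to 32.0, with the diets overlapping at both. Since no Hnf4g probe set passed the filter, Hnf4a was not set against Hnf4g within arrays.

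Pax8, the paired-box factor of adult tubules, gave 1639.5, 1573, 1914, 1999 and 1709 at probe set 1418208_at in control replicates 1 to 5. In calorie-restricted replicates 1 to 5 it gave 1716, 1578, 1719.8, 1834 and 1713, all within the control range. The log2 difference was -0.04 ± 0.10 (limma adjusted p = 0.824), and the 95% interval of the fold change ran from 0.841 to 1.12. This was the narrowest interval among the tested probe sets of the 5 genes that were not called. The dim Pax8 probe set 1446561_at ran from 6.43 to 69.9 in control and from 18.5 to 96.6 in calorie restriction, and the diets overlapped.

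Lhx1, the LIM homeobox factor of the early nephric duct and nephron, had 2 tested probe sets. At the brighter, 1450428_at, the control signals were 796, 801, 671, 719.9 and 885 and the calorie-restricted ones 716, 748, 932, 784 and 705. The diets overlapped, with calorie-restricted replicate 3 above all controls and control replicate 3 below all calorie-restricted kidneys, and the difference was 0.0036 ± 0.12 (limma adjusted p = 0.988) and a fold change between 0.843 and 1.19. At 1421951_at the calorie-restricted signals spread from 129 to 283 around the controls' 160.1 to 245, and the fold interval was wide, 0.686 to 1.35.

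Emx1 and Emx2 are homeobox paralogs best known from the forebrain, where Emx1 marks cortical neurons. At Emx1 1441777_at the control signals were 794, 809, 614, 797 and 690.3 and the calorie-restricted ones 958, 769, 848, 708 and 688. Calorie-restricted replicates 1 and 3 lay above all controls, and the difference was 0.10 ± 0.13 (limma adjusted p = 0.658; fold 0.887 to 1.29). At Emx2 1456258_at the control signals were 1119, 1014, 1016, 1116 and 852 and the calorie-restricted ones 863, 877, 1114, 1131 and 1207. These overlapped, with a difference of 0.014 ± 0.13 (limma adjusted p = 0.958; fold 0.837 to 1.22). The within-array log2 ratio of Emx1 to Emx2, the 1 pair of paralogs that was tested, was -0.47 ± 0.17 in control and -0.38 ± 0.38 in calorie restriction (SD, n = 5; 2-sided exact permutation p = 0.683).

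The second Emx1 probe set, 1444216_at, lay under the filter, at the 13.3rd percentile of mean signal. It gave 9.0, 9.04, 7.28, 5.89 and 7.94 in control replicates 1 to 5 and 50.7, 21.4, 74.6, 34.8 and 15.5 in calorie-restricted replicates 1 to 5. All 5 calorie-restricted values were above all controls (2-sided exact permutation p = 0.00794), where 4.44% of all non-control probe sets had diets that did not overlap. In the fit without a filter, which called 0.637% of all non-control probe sets, it was not called (limma adjusted p = 0.0664), and the brighter Emx1 probe set did not share the pattern. The highest of them, 74.6, is under the lowest array median, 115, and no fold change is read from them. Of the 7 untested probe sets it was the one whose diets did not overlap.

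Tfcp2l1, the collecting duct factor, varied widely between mice. Probe set 1418091_at gave 2617, 3309, 4177, 3877 and 3642 in control replicates 1 to 5 and 4165, 5029, 4068, 3199.8 and 2469 in calorie-restricted replicates 1 to 5. The calorie-restricted group held both the highest and the lowest kidney, and the difference was 0.08 ± 0.17 (limma adjusted p = 0.809; fold 0.815 to 1.37). It was -0.42 in replicates 4 and 5 alone (adjusted p = 0.222) and -0.34 when adjusted for the 3' to 5' ratio (limma adjusted p = 0.420), so its direction was not settled. The remaining Tfcp2l1 probe sets were dim, 1460714_at between 3.39 and 43.2 and 1460715_x_at between 3.73 and 67.8, with the calorie-restricted values inside the control range at both.

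**Figure D3:**
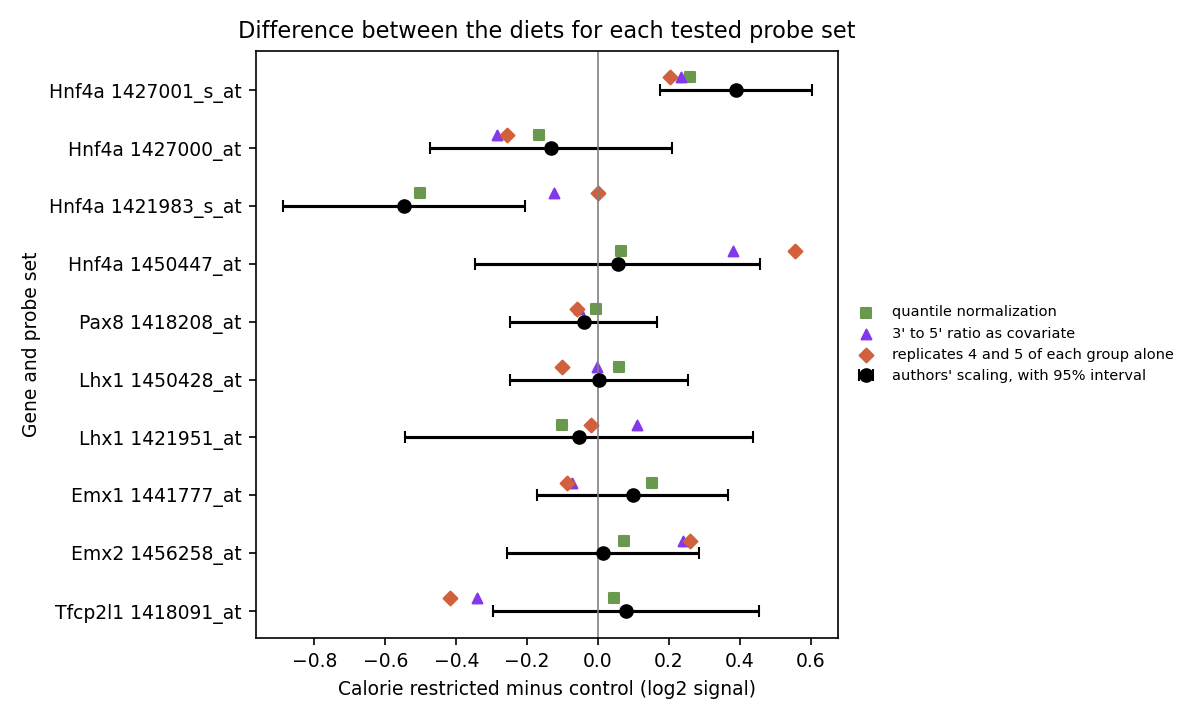
Calorie restricted minus control (log2 signal) for the 10 tested probe sets, as black points with the 95% limma interval at the authors' scaling and coloured marks for 3 other settings, 5 mice per diet except in the setting that keeps replicates 4 and 5. The 2 intervals that leave out 0 are those of Hnf4a 1427001_s_at (0.17 to 0.60) and 1421983_s_at (-0.89 to -0.21).

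On these 10 arrays the brightest probe sets of the factors did not all rise and fall together. After the group means were subtracted, Pearson's r between the brightest probe sets of 2 factors over the 10 arrays ran from -0.66 (Emx2 with Tfcp2l1) to 0.45 (Hnf4a with Lhx1), and 8 of 15 pairs were below 0. The genes most like each factor by the same measure were picked as the highest over all tested genes, and all points share array scaling and RNA quality, so they are a description. For Hnf4a they were Gm4285 (0.957), Fam107a (0.954) and Evc (0.925), and for Pax8 Tle4 (0.974), C1qtnf4 (0.909) and Akt1 (0.902). For Lhx1 they were Mpp5 (0.934), Cnot6l (0.919) and Creb3l2 (0.915). Emx1 was most like Rdx (0.962), Pja2 (0.960) and Hsd17b4 (0.952), and Emx2 most like Cnksr1 (0.963), Snapc1 (0.944) and Ctps2 (0.941). Tfcp2l1 was most like Ecpas (0.948), Tpt1 (0.938) and Rc3h1 (0.933). Of these 18 genes Tpt1, a growth-related cytosolic protein, was the one called between diets (0.38, limma adjusted p = 0.0250). Over all genes tested, 3.08% were called higher and 3.02% lower.

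Other genes around these factors were taken from lists, each gene by its brightest probe set. Over all 12196 genes so tested, 3.08% were called higher and 3.02% lower, and the median difference was -0.0052. Proximal tubule genes described as targets of hepatocyte nuclear factors such as HNF4 were higher in calorie restriction: 15 of 34 rose, 0 fell, and 32 were above 0, with a median of 0.34. The acyl-CoA synthetase Acsm2 rose from 16568 ± 2780.0 to 26670.2 ± 3352 (SD, n = 5), a log2 difference of 0.69 ± 0.11 (limma adjusted p = 0.0138). Glyat, which conjugates glycine to acyl groups, rose by 0.55 ± 0.095 and the gluconeogenic enzyme Fbp1 by 0.37 ± 0.066 (limma adjusted p = 0.0152 and 0.0167). After quantile normalization the 3 differences were 0.41, 0.31 and 0.018 (limma adjusted p = 0.0611, 0.0566 and 0.851). Pck1, which feeds gluconeogenesis, and Hpd of tyrosine breakdown were the 2 below 0, at -0.0039 and -0.13, and neither was called.

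Markers of the proximal tubule itself moved with this list: 6 of 9 rose, and their summed signal was 99818 to 129586 in the control kidneys and 150715 to 182860 in the calorie-restricted ones. After quantile normalization 2 of the 9 passed, Kap (0.40) and Slc22a6 (0.51), and the marker median was 0.30 where it had been 0.40. The lists share 5 genes, and without them 12 of 29 were higher, with a median of 0.33. How far a larger share of proximal tubule RNA enters these values was not tested. After quantile normalization, which called 3.39% of all tested probe sets, 2 of the 34 were called, the apolipoprotein Apom (1.10) and the organic anion transporter Slc22a6 (0.51), and the median was 0.13. Those 2 were named after their values were seen. Replicates 4 and 5 alone gave a median of 0.36 with 4 called, where 0.879% of all probe sets were. Adjustment for the 3' to 5' ratio gave 0.33 with 0 called, where 0.0400% of all probe sets were. Leaving out 1 array gave 3 to 16 calls, and Acsm2, Glyat and Fbp1 were called each time. The count was 3 without control replicate 2 or calorie-restricted replicate 1, where 125 and 226 of all 22519 tested probe sets were called. It was 4 without control replicate 4 or calorie-restricted replicate 2 (410 and 172 over all). It was 5 without calorie-restricted replicate 3 (324 over all), and 8 without control replicate 3 or 5 (513 and 776 over all).

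Promoters of the factors and of this list were searched on both strands for CAAAGTCCA (HNF4) and TAATTA, which do not overlap. Of the 8 factors 7 had a RefSeq promoter, 0 held CAAAGTCCA and 2 held TAATTA, at the downstream start of Hnf4a and at Emx2. Of the list's 37 genes 29 had a RefSeq promoter. CAAAGTCCA was in 0 of the 29 and in 0.555% of all 27025 genes with a promoter. An exact spelling this rare cannot tell so few promoters from all others. Other spellings of the HNF4 site, and sites outside these windows, were not searched. TAATTA was in 3 of the 29, or 10.3%, and in 6.12% of all genes.

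Collecting duct genes, the domain of Tfcp2l1, had a median of 0.044, with 2 of 24 higher and 0 lower. These were the aquaporin family member Aqp6 (0.77 ± 0.14, limma adjusted p = 0.0170) and the anion exchanger Slc4a1 (0.64 ± 0.17, limma adjusted p = 0.0466). Slc4a1 is a gene of acid-secreting cells that red cells also express. In replicates 4 and 5 alone Aqp6 and Slc4a1 differed by 0.34 and 0.20, and neither was called there. With 1 array left out, calls ran from 0, when it was control replicate 2, to 4, when it was calorie-restricted replicate 4. Those 2 fits called 125 and 2104 of all 22519 tested probe sets. With control replicate 1, 3 or 4 or calorie-restricted replicate 1, 2 or 3 left out, 1 was called, and 172 to 1339 over all.

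Other nephron and duct transcription factors had a median of -0.0036, and 1 of 28 was lower and 0 higher. The one was Sox4, a SOX factor of the developing nephron, which fell from 1988 ± 390.1 to 1082 ± 188 (SD, n = 5), a difference of -0.87 ± 0.15 (limma adjusted p = 0.0152). It differed by -0.83 after quantile normalization and by -1.02 in replicates 4 and 5 alone. It was called in 10 of 10 fits with 1 array left out (limma adjusted p 0.00500 to 0.0452). In such fits 4 of this list were called without control replicate 1 or calorie-restricted replicate 4, and 2 without replicate 5 of either group. Of all 22519 tested probe sets, 1339 and 2104 were called without control replicate 1 and calorie-restricted replicate 4. Without control replicate 5 and calorie-restricted replicate 5, 776 and 2481 were.

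Partners and cofactors listed for the 8 factors or their families, such as the coactivators and LIM-binding proteins, had a median of -0.017. Of 21 tested, 1 fell, the PAX-binding protein Paxbp1, with a difference of -0.73 ± 0.14 (limma adjusted p = 0.0198). It was listed for the PAX family, and whether it binds Pax2 or Pax8 was not examined. Paxbp1 was not called without control replicate 2 or calorie-restricted replicate 1 or 2. Genes of the nephric duct and kidney development had a median of 0.032, and 11 of the 25 listed passed the filter. Of these 1 fell, the growth factor signalling inhibitor Spry1, with a difference of -0.47 ± 0.11 (limma adjusted p = 0.0276).
The list had 0 calls without control replicate 2, 3 or 4 or calorie-restricted replicate 1, 2 or 3. Those fits called 125 to 513 of all 22519 tested probe sets. It had 2 calls without calorie-restricted replicate 5, where 2481 of all were called.

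**Figure D4:**
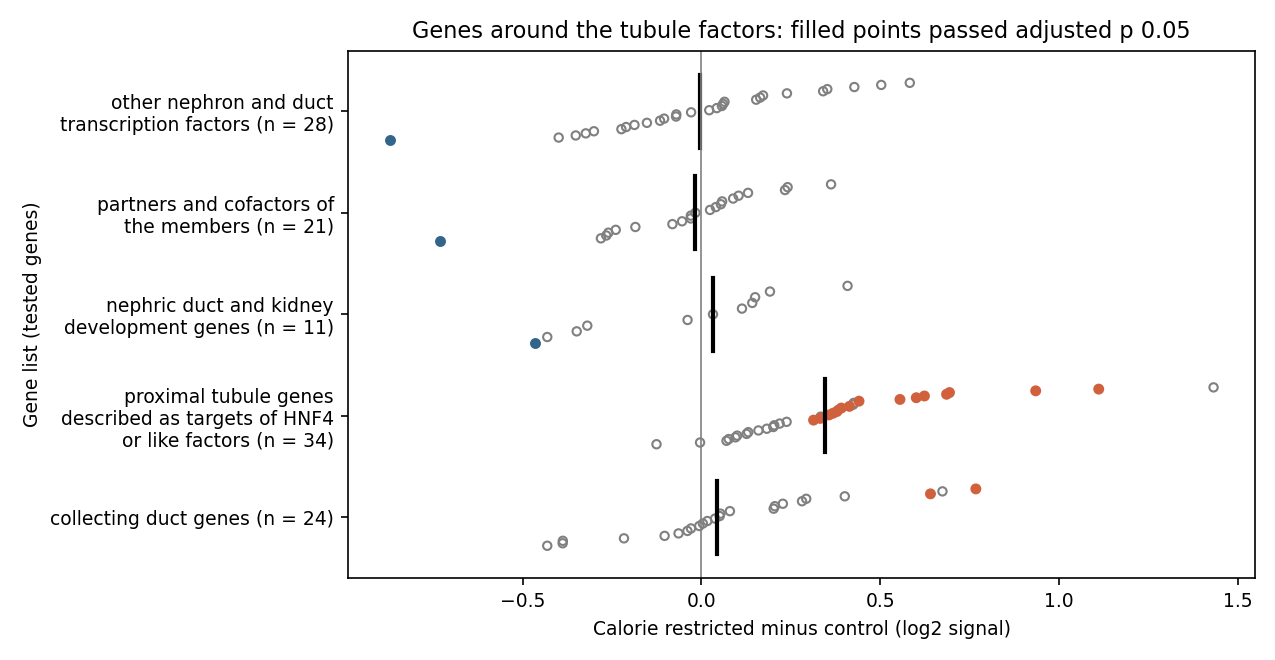
Calorie restricted minus control (log2 signal) of each tested gene in 5 lists, 1 point per gene, 5 mice per diet; filled points passed the adjusted p threshold and black bars mark the medians. The proximal tubule list stands to the right with a median of 0.34, and the other medians lie between -0.017 and 0.044.

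Markers of other cells were read beside these values. The thick limb and distal tubule had 0 of 7 markers called, with summed signals of 62496 to 77179 in control and 75155 to 84999 in calorie-restricted kidneys. The median difference of the 7 was 0.080, and -0.036 after quantile normalization. For Umod, the brightest of them, the difference was 0.29, and -0.061 after quantile normalization. Principal cells had 0 of 5 called (12143 to 15559 and 14813 to 18229), and intercalated cells had 1 of 5 higher, Slc4a1 (4001 to 5463 and 4681 to 5799). Injured or repairing tubule, in which embryonic nephron factors can return, had 2 of 10 lower, the adhesion molecule Vcam1 and the chemokine Ccl2. The median difference of the 10 was -0.61, with 4 above 0. It was -0.60 after quantile normalization and -0.95 in replicates 4 and 5 alone. Their summed signals were 19341 to 28987 and 20183 to 24325. The largest signal in these sums was that of Clu, which averaged 11162 in control and 11037 in calorie restriction. Parietal epithelium of the glomerular capsule had 1 of 3 lower, Cldn1 (4434 to 9151 and 3507 to 5654), and podocytes 1 of 4 lower, Wt1 (2960.0 to 5326 and 2919 to 3799).

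Hepatocytes also express Hnf4a, and of 10 of their markers albumin, Alb, was higher and fibrinogen gamma, Fgg, lower, with summed signals of 13108 to 17630.3 and 13702 to 18892.5. Of these markers 8 were above 0, with a median difference of 0.59, and 0.58 after quantile normalization and 0.78 in replicates 4 and 5 alone. Most of the summed signal was that of transthyretin, Ttr, which averaged 9089 in control and 9716 in calorie restriction. Urothelium had 0 of 5 called, endothelium 0 of 6 and adrenal gland 0 of 2. Their median differences were 0.26, -0.24 and 0.50, with 5, 0 and 2 markers above 0. Macrophages had 5 of 8 lower (16950.0 to 27711 and 12060.4 to 18664), Mpeg1, Ctss, Cd14, Mrc1 and Lyz2. Fibroblasts and smooth muscle had Pdgfra and Lum lower of 8 markers (12377 to 18807 and 11712 to 13997). Adipocytes had Fabp4 and Cidea lower of 4 (13473 to 19221 and 6466 to 11644). B and plasma cells had 1 of 4 lower, Pou2af1 (6624 to 18463 and 1387 to 14840). These markers were named after their values were seen. The part of any of these cells in the values of the tubule factors was not tested.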

How the data were processed

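Kidney RNA (5 ug, Trizol) was turned into biotinylated cRNA, per the labels' protocols. The submitters' processing notes name MAS5 and Affymetrix Expression Console, and the authors deposited 1 linear intensity per probe set and array. Its mean over probe sets, trimmed by 2% at both ends, was 500.003 throughout, a common scaling that does not even out bright against dim probe sets. Detection calls were not used here.

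Intensities were floored at 1 (this touched 0 values of tested probe sets) and put on the log2 scale, without the array's control probe sets. Diets were compared by limma 3.58.1 (R 4.3.3; eBayes with an intensity trend, 2-sided, Benjamini-Hochberg over the 22519 tested probe sets). Single ratios were tested with exact permutation over arrays. The limma step was tested on simulated data with independent noise at each probe set. It called 77% of simulated log2 changes of 1 in either direction, and 6 unchanged probe sets. The simulation held no effect shared across an array, such as RNA quality, so it does not bear on such effects. Names came from the platform annotation, and all 17 gene IDs matched the RefSeq table. Which probe sets recognise related transcripts was not examined; names ending in s_at or x_at mark those that can. Replicates are labelled as separate mice, so each p-value is read against the variation among these 10 mice.

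All members were named with every probe set. From each list up to 3 called genes with the smallest p were named, and the called markers of other cell types were named beyond that rule. For each factor the 3 genes with the highest within-group Pearson correlation were named. The members, lists and tests were chosen with earlier results of these data known. Alternatives were other filters, scalings, log offsets, variance models and thresholds, array weights, the replicate number as a block, adjustment for the 3' to 5' ratio, subsets of arrays, each array left out, and averaging over the probe sets of a gene. Results that need 1 further promoter motif are not reported here.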

Additional observations from a re-analysis of the deposited data

How the results depend on the processing

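The number of probe sets called over the whole table, 1371, was 287 without a filter, 764 after quantile normalization, 243 without the intensity trend, 2292 with array weights and 127 with the replicate block. It was 9 with the 3' to 5' covariate, 198 in replicates 4 and 5 of each group alone, 1 with calorie-restricted replicates 4 and 5 set against the 5 controls, 1 at a threshold of 0.01 and 3246 at 0.10. Leaving out 1 array gave 125 (control replicate 2) to 2481 (calorie-restricted replicate 5). The count of tubule factors called by their brightest probe set, 1, was 0 without a filter, after quantile normalization, with median centring, without the trend, with the replicate block, with the covariate, in both array subsets, at 0.01 and when a gene's probe sets were averaged. Leaving out 1 array gave 0 to 1.

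Hnf4a 1427001_s_at kept its direction in all 22 alternatives (adjusted p 0.0232 to 0.515). It lost the call at 0.39 without a filter (limma adjusted p = 0.0859), without the trend (0.0869) and with the replicate block (0.0964). It also lost it with median centring (0.29), quantile normalization (0.26), the covariate (0.23), replicates 4 and 5 alone (0.20) and calorie-restricted replicates 4 and 5 set against the 5 controls (0.24). Leaving out 1 array gave 0.34 to 0.44. Hnf4a 1421983_s_at gained the call at -0.55 with the stricter filter (limma adjusted p = 0.0428), at -0.65 with median centring and at -0.58 with array weights, and ran from -0.66 to -0.46 with 1 array left out. The difference in the log2 ratio of 1427001_s_at to 1421983_s_at was 0.20 in replicates 4 and 5 alone and 0.57 with those calorie-restricted replicates against all controls. The exact permutation p cannot go below 0.333 in the first. With 1 array left out this difference was 0.80 to 1.04 (2-sided exact permutation p 0.00794 to 0.0159). The pair was picked after its values were seen, so these fits are no separate test of it. The causes were not tested.

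Uncalled factors changed sign, uncalled, in some settings. With median centring, which shifts the median of all tested probe sets to -0.098, Hnf4a 1450447_at stood at -0.043, Lhx1 1450428_at at -0.094, Emx1 at -0.00043, Emx2 at -0.084 and Tfcp2l1 at -0.018. With the covariate Lhx1 1450428_at was -0.0030, Lhx1 1421951_at 0.11, Emx1 -0.075 and Tfcp2l1 -0.34. In replicates 4 and 5 alone Lhx1 1450428_at was -0.10, Emx1 -0.088, Tfcp2l1 -0.42 and the Emx1 to Emx2 ratio -0.35. With calorie-restricted replicates 4 and 5 set against the 5 controls Pax8 was 0.011, Lhx1 1450428_at -0.053, Lhx1 1421951_at 0.071, Emx1 -0.078, Tfcp2l1 -0.31 and the ratio -0.28. With 1 array left out Hnf4a 1450447_at ran from -0.066 to 0.14, Pax8 from -0.081 to 0.0053, Lhx1 1450428_at from -0.064 to 0.053 and Lhx1 1421951_at from -0.20 to 0.082. Emx2 ran from -0.050 to 0.077, Tfcp2l1 from -0.033 to 0.22 and the Emx1 to Emx2 ratio from -0.051 to 0.19. Hnf4a 1427000_at and, with 1 array left out, Emx1 kept their sign.

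Without a filter 3 of the proximal tubule list, 1 of the collecting duct list and 0 of the development list were called. After quantile normalization the proximal tubule count was 2 and its median 0.13. With the covariate the counts of all 5 lists were 0, and the median of partners was -0.10. In replicates 4 and 5 alone the proximal tubule count was 4, those of the partner, development and collecting duct lists were 0, and the medians of the other factors, the partners and the development genes were -0.13, -0.13 and -0.085. With 1 array left out, calls ran from 1 to 4 (other factors), 0 to 1 (partners), 0 to 2 (development), 3 to 16 (proximal tubule) and 0 to 4 (collecting duct). Equal replicate numbers did not pair the mice: the correlation of deviations from the group means was -0.14 to -0.087 over the 5 numbers, and the replicate block changed the call of no other tested factor. The number of arrays limits the precision.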
